A study of Rattus norvegicus with 10 samples.

Results

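The chemokines of the liver described here are 10 genes, Ccl2, Ccl5, Ccl7, Cxcl1, Cxcl2, Cxcl9, Cxcl10, Cxcl12, Cxcl16 and Cx3cl1. They were chosen by name, and a probe was taken as theirs where its accession belongs to the gene. Of the 10 genes, 9 had a probe, out of 13831 genes named on the array, and these 9 genes had 12 of the 41012 probes. No probe was matched to Cxcl16, which is not analysed further here. The livers of 10 male Sprague Dawley rats had each been read on 1 Agilent rat array with a single dye. Control rats (3 arrays) received the solvent propylene glycol. SM rats (4 arrays) received sulfur mustard, a bifunctional alkylating vesicant, under the skin at 3.5 mg/kg, which is 0.7 of the LD50. SM + MSTF rats (3 arrays) received the same dose of SM and, 1 h later, 120 mg/kg MSTF into the stomach. MSTF combines 2 plant extracts, the salvianolic acids of Salvia miltiorrhiza and the flavonoids of Anemarrhena asphodeloides. All livers were taken 24 h after SM.

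Chemokines are small secreted proteins that draw leukocytes along a gradient by binding receptors coupled to G proteins. In the liver they come from hepatocytes, Kupffer cells, sinusoidal endothelial cells, stellate cells and infiltrating leukocytes. CC chemokines such as Ccl2 recruit mainly monocytes and lymphocytes, Cxcl1 and Cxcl2 recruit neutrophils, and Cxcl9 and Cxcl10 are interferon-inducible ligands that recruit activated T cells and natural killer cells. Cxcl12, Cxcl16 and Cx3cl1 are made in many resting tissues, and Cxcl16 and Cx3cl1 are also anchored in the cell membrane until they are shed.

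Values are the log2 of the background-subtracted spot intensity after quantile normalization over the 10 arrays. Between 51.9% and 61.4% of probes were well above background on an array, and the median ratio of signal to background lay between 2.20 and 2.54. Of the 9 genes with a probe, 8 passed the filter, which kept 22991 probes, those well above background throughout at least 1 group. Ccl7 passed through the SM group alone, and Cxcl2 did not pass. A gene is called changed where limma's Benjamini-Hochberg adjusted p was under 0.05 and the change was at least 1.5-fold. The 3 controls shared slide 1 with replicate 3 of SM + MSTF, the 4 SM arrays filled slide 2, and replicates 1 and 2 of SM + MSTF were on slide 3. In SM versus control the effect of SM therefore cannot be told apart from that of slide 2. In SM + MSTF versus SM the same holds for the effect of MSTF and that of slide. SM + MSTF versus control is confounded with slide in part, since only replicate 3 of SM + MSTF shared a slide with the controls. Whole liver was measured, so that fewer cells of a type and less RNA per cell cannot be told apart either.

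None of the 8 tested chemokines was called changed by limma in SM versus control, where 553 of 22991 probes (2.41%) were called. In this comparison Ccl2, Ccl7 and Cxcl12 had an unadjusted p under 0.05, against 16.4% of all probes tested. The arrays of SM and control did not overlap for Ccl5 and Cxcl12, against 18.0% of all probes. The fitted log2 fold change was below 0 for 7 of the 8 genes and above 0 for Ccl7, with each of the 4 sets of values tried, with a median of -0.58 against 0.032 over all probes tested. Because Ccl7 entered the test only through the SM arrays, its p is partly set by that selection, and this count and median describe the genes tested and not all members.

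For SM + MSTF against control, 0 of the 8 chemokines and 0 of the 22991 probes (0%) were called by limma. On its brighter probe no chemokine had an unadjusted p under 0.05, although the second probe of Cxcl12 did, against 2193 probes (9.54%). The arrays of these groups did not overlap for Ccl2 alone, against 15.4% of all probes. The median fitted log2 change of the 8 genes was -0.21 against 0.0046 over all probes.

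SM + MSTF versus SM gave 0 chemokines called by limma, against 290 probes (1.26%). Ccl7 and Cxcl12 had an unadjusted p under 0.05, against 15.9% of all probes, and the arrays did not overlap for Ccl7, against 14.7%. The fitted change was above 0 for 7 of the 8 genes and below 0 for Ccl7, with a median of 0.38 against -0.022 over all probes. Ccl7 passed the filter because it was bright in SM, so that its p, its separation and its place in this count are partly set by that selection. This comparison shares the 4 SM arrays with SM versus control, so that the opposite signs of the 2 sets of values are not separate observations.

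**Figure D1:**
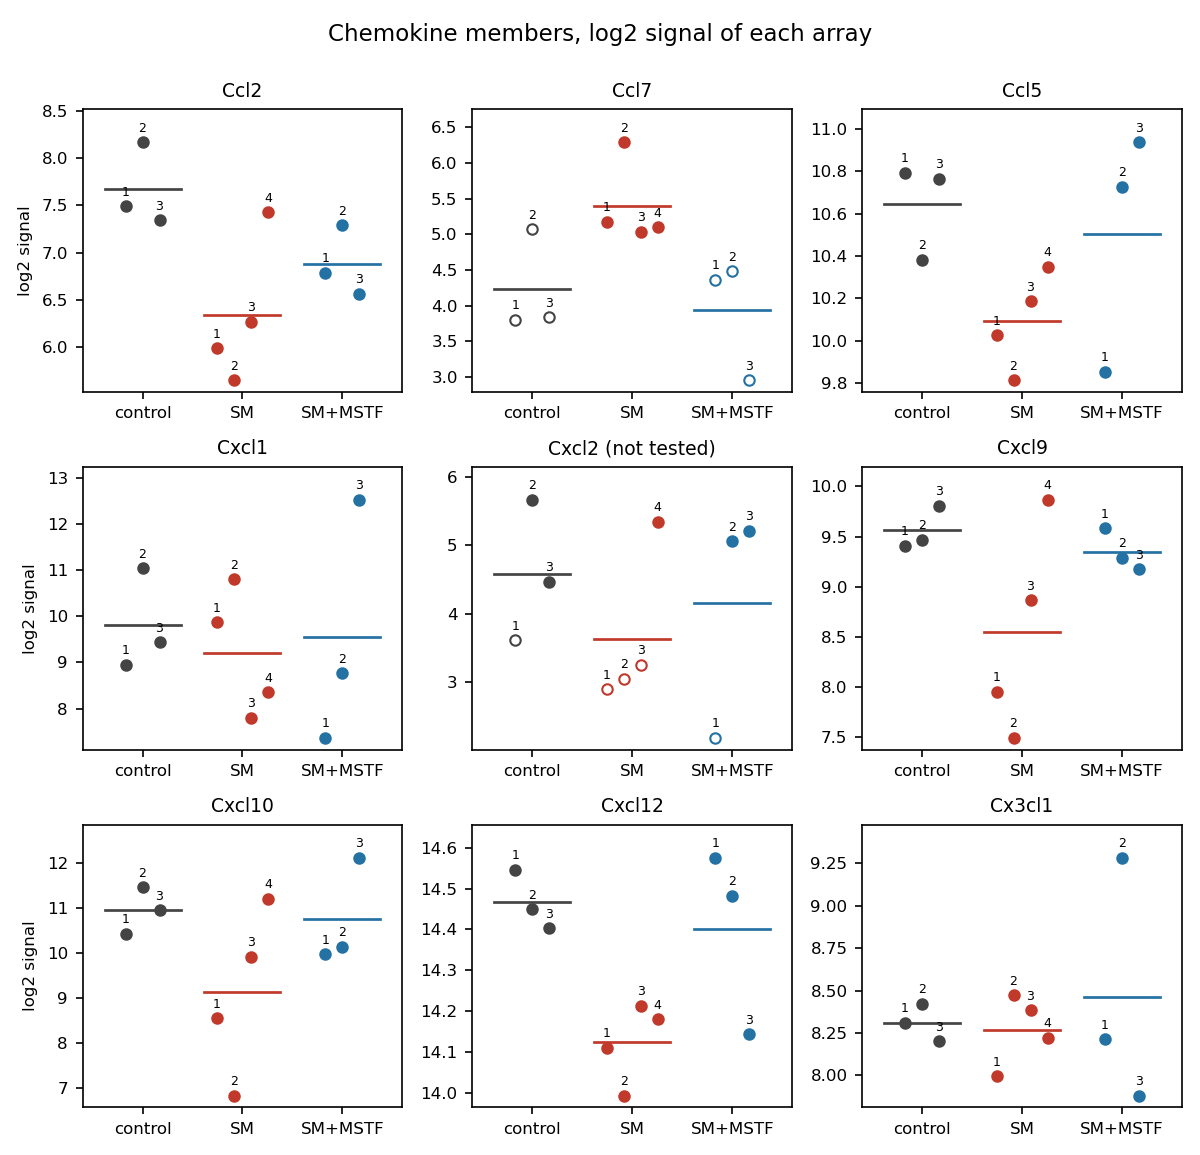
Log2 signal of the 9 chemokines with a probe on each array, by group, with the replicate number beside each point and the group mean as a line; open points were not well above background on that array. SM replicate 2 was the lowest of the 10 arrays for 5 of the 8 tested genes, and the scale differs between panels.

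Ccl2, also known as monocyte chemoattractant protein, draws monocytes through the receptor Ccr2. Its log2 signal was 7.49, 8.17 and 7.34 in the control livers, 5.99, 5.66, 6.27 and 7.43 in the SM livers and 6.79, 7.29 and 6.57 in the SM + MSTF livers. SM replicates 1, 2 and 3 lay below all controls, while SM replicate 4 lay between control replicates 1 and 3, and all SM + MSTF arrays lay below all controls. The probe was spotted 10 times on each array, and the SD over these spots was at most 0.28. The fitted log2 change was -1.33 in SM versus control (SE 0.39, adjusted p = 0.119), which corresponds to a level 2.52-fold lower. Without SM replicate 4 it was -1.69 (SE 0.27, adjusted p = 0.0343) and Ccl2 was called, with adjusted p between 0.0343 and 0.359 over 17 alternatives. These 17 were used for each gene in the comparisons with the SM arrays. They leave out the unadjusted t-test, which gives no adjusted p. They also leave out the changes of filter and fold minimum, under which only calls were counted. In SM + MSTF versus control the fitted log2 change was -0.78 (SE 0.42, adjusted p = 0.586), and SM + MSTF differed from SM by 0.55 (SE 0.39, adjusted p = 0.502). Over the alternatives the former ran from -1.1 to -0.52 and the latter from 0.29 to 0.91.

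Ccl7, a relative of Ccl2 that binds Ccr1, Ccr2 and Ccr3, was the only member with a fitted change above 0 in SM. Its brighter probe read 3.80, 5.07 and 3.84 in control, 5.18, 6.29, 5.03 and 5.10 in SM and 4.36, 4.49 and 2.96 in SM + MSTF, in log2 units. It was well above background on all 4 SM arrays and on no other array, so that a bound replaces the fold change. A bound sets the mean of the brighter group against, for each dim array, the lowest signal well above background there, or its own measured signal if larger. Ccl7 was at least 1.90-fold higher in SM than in control (adjusted p = 0.254) and at least 2.04-fold higher in SM than in SM + MSTF (adjusted p = 0.186). These bounds hold for the background subtraction used. With normexp correction the fitted log2 changes were 0.24 between SM and control and -0.26 between SM + MSTF and SM, both smaller than the bounds. SM and control overlapped through control replicate 2, while all SM + MSTF arrays lay below all SM arrays. The dimmer probe of Ccl7 went the other way, with means of 4.64 in control, 3.77 in SM and 4.45 in SM + MSTF. It was well above background on 2 control arrays, 1 SM array and 1 SM + MSTF array and was not tested, so that the direction for Ccl7 rests on which probe is read.

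**Figure D2:**
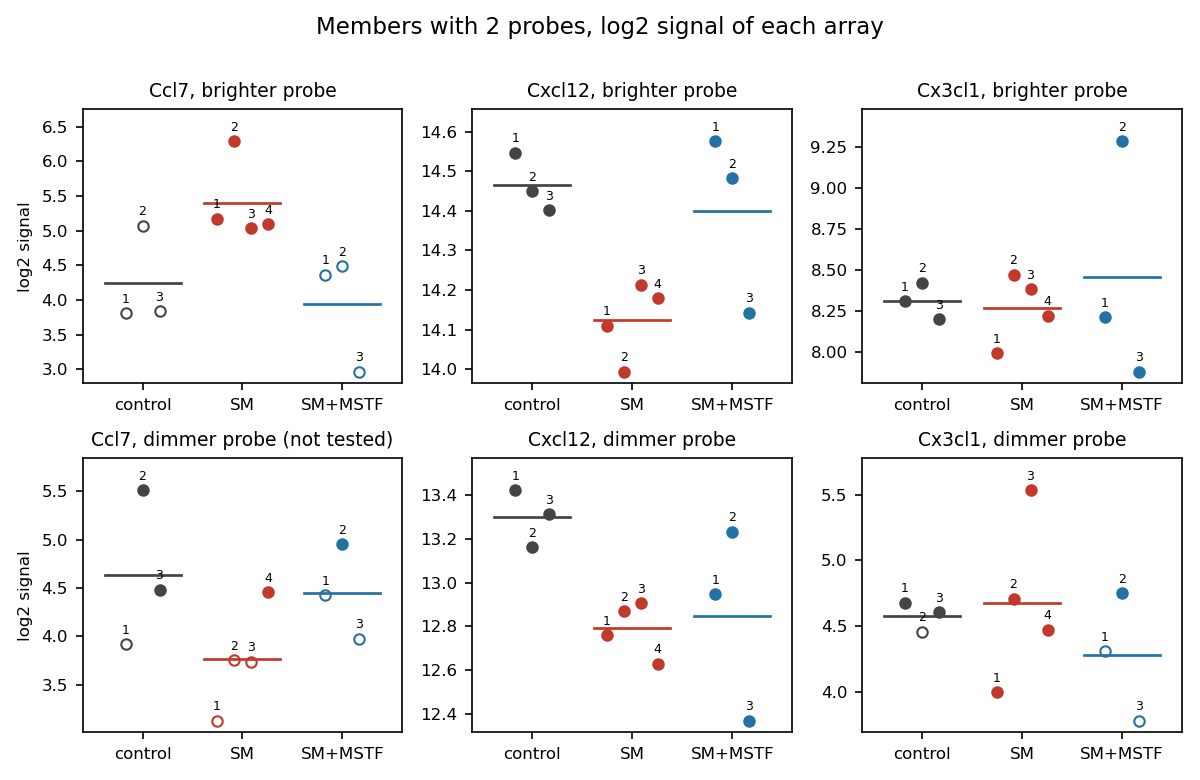
Log2 signal of both probes of Ccl7, Cxcl12 and Cx3cl1 on each array, by group, with the replicate number beside each point, the group mean as a line and open points for values not well above background. For Ccl7 the SM mean lay above the control mean on the brighter probe (5.40 against 4.24) and below it on the dimmer probe (3.77 against 4.64).

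Cxcl9 and Cxcl10 bind Cxcr3 on activated T cells and natural killer cells. Cxcl10 had a log2 signal of 10.42, 11.46 and 10.94 in control, 8.55, 6.82, 9.91 and 11.20 in SM and 9.96, 10.14 and 12.12 in SM + MSTF. The 4 SM livers spanned a 20.7-fold range, from SM replicate 2, the lowest of the 10 arrays, to SM replicate 4 inside the control range. The group SD was 0.52 in control, 1.87 in SM and 1.20 in SM + MSTF. Its fitted log2 change was -1.82 in SM versus control (SE 0.92, adjusted p = 0.373), -0.20 in SM + MSTF versus control (SE 0.99, adjusted p = 0.963) and 1.62 between SM + MSTF and SM (SE 0.92, adjusted p = 0.405). None of these exceeded the spread between livers by the test, and 1 liver moved them: SM versus control ran from -1.05 without SM replicate 2 to -2.51 without SM replicate 4, and SM + MSTF against SM from 0.85 to 2.31 without the same arrays. Within slide 1, SM + MSTF replicate 3, a single array, lay 1.18 above the mean of the controls for Cxcl10.

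Cxcl9 showed the same order of SM livers at a narrower range. Its log2 signal was 9.41, 9.47 and 9.81 in control, 7.95, 7.50, 8.86 and 9.87 in SM and 9.58, 9.29 and 9.17 in SM + MSTF. The control livers spanned 1.32-fold and the SM + MSTF livers 1.33-fold, while the SM livers spanned 5.17-fold, with SM replicates 1, 2 and 3 below every other array and SM replicate 4 above all of them. The fitted log2 change was -1.02 in SM versus control (SE 0.47, adjusted p = 0.319), -0.21 in SM + MSTF versus control (SE 0.50, adjusted p = 0.913) and 0.80 between SM + MSTF and SM (SE 0.47, adjusted p = 0.413). Without SM replicate 2 the first of these was -0.67 (adjusted p = 0.490), and without SM replicate 4 it was -1.46 (adjusted p = 0.0640). Over the alternatives the second ran from -0.39 to -0.09 and the third from 0.45 to 1.24.

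Promoter sequences of RefSeq on the assembly GRCr8, 300 bases around the gene's start, were matched for 8 of the 10 members. Ccl2 and Ccl5 had no entry. They were searched on both strands for GGG, 3 free bases and TTCC, a pattern like the binding site of NF-kB, and for TTTC, 2 free bases and TTTC, a pattern like the interferon-stimulated response element, and overlapping matches of 1 pattern were counted as 1 stretch. Of 33469 promoters of this length, 5.37% hold the first pattern and 3.92% the second. The first pattern lies in 4 of the 8 matched members, Ccl7, Cxcl1, Cxcl2 and Cxcl10, the second in Cxcl10 alone, and neither in Cxcl9, Cxcl12, Cxcl16 and Cx3cl1. A match describes the letters and is no evidence of binding. Shown are the promoters of the neighbouring genes Cxcl9 and Cxcl10, and of Ccl7, the member with the opposite fitted direction. The signals of Cxcl9 and Cxcl10 had the same order over the SM livers and the opposite order over the SM + MSTF livers. The promoters read 5' to 3' along the gene's strand, with matches in capitals. In Cxcl10 the first stretch of capitals is the interferon-like pattern, read on the opposite strand, and the other capitals are the NF-kB-like pattern, as is the stretch in Ccl7, there on the opposite strand.
Cxcl9 (chr14:16006916-16007215, plus strand, GRCr8): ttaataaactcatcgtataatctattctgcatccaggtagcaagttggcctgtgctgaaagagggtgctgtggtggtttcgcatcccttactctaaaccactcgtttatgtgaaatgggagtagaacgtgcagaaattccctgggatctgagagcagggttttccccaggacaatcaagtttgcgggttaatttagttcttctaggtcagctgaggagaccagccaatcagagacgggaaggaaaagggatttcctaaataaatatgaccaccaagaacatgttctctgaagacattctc
Cxcl10 (chr14:15988816-15989115, plus strand, GRCr8): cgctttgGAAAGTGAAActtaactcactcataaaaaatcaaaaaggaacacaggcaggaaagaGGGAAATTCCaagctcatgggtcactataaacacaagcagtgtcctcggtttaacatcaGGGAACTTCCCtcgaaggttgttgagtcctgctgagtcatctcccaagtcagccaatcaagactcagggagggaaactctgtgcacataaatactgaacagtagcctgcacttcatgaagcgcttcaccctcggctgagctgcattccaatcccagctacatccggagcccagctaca
Ccl7 (chr10:67513845-67514144, plus strand, GRCr8): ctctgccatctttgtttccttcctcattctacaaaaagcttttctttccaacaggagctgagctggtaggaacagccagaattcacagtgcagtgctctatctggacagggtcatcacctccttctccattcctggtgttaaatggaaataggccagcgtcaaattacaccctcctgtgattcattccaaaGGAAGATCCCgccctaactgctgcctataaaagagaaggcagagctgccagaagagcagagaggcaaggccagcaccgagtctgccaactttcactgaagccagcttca
The Cxcl10 promoter holds 1 interferon-like stretch, starting 243 bases before the gene's start, and 2 NF-kB-like stretches between it and the start. In Ccl7 the single stretch begins 59 bases before the start.

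Ccl5, a ligand of Ccr1 and Ccr3 that is made largely by T cells and natural killer cells, lay lower in all 4 SM livers than in any control. Its log2 signal was 10.79, 10.38 and 10.76 in control, 10.03, 9.82, 10.19 and 10.35 in SM and 9.85, 10.73 and 10.94 in SM + MSTF. The gap between the lowest control and SM replicate 4 was narrow, and the SM + MSTF livers spread over the range of both other groups. The fitted log2 change was -0.55 in SM versus control (SE 0.25, adjusted p = 0.308), -0.14 in SM + MSTF versus control (SE 0.26, adjusted p = 0.887) and 0.41 between SM + MSTF and SM (SE 0.25, adjusted p = 0.430). The last of these ran from 0.2 to 0.74 over the 17 alternatives.

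Cxcl1 and Cxcl2 recruit neutrophils through Cxcr2. Cxcl1 read 8.95, 11.04 and 9.44 in control, 9.87, 10.80, 7.80 and 8.36 in SM and 7.37, 8.76 and 12.52 in SM + MSTF, in log2 units. The SM + MSTF livers alone spanned 35.6-fold and held both the lowest and the highest of the 10 arrays. The fitted log2 changes of -0.60 in SM versus control (SE 1.17, adjusted p = 0.848), -0.26 in SM + MSTF versus control (SE 1.25, adjusted p = 0.961) and 0.34 between SM + MSTF and SM (SE 1.17, adjusted p = 0.902) were each smaller than their standard error. Without SM + MSTF replicate 3 the last of these was -1.15, and within slide 1 that replicate, a single array, lay 2.71 above the mean of the controls. Cxcl2 was well above background on 2 control arrays, 1 SM array and 2 SM + MSTF arrays and was not tested. On these arrays it read between 4.47 and 5.67 on the log2 scale.

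Cxcl12, the ligand of Cxcr4 and Ackr3 that retains leukocytes and progenitor cells in tissues, had the smallest standard errors of the members. Its brighter probe read 14.55, 14.45 and 14.40 in control, 14.11, 13.99, 14.21 and 14.18 in SM and 14.58, 14.48 and 14.14 in SM + MSTF, in log2 units. All SM livers lay below all controls, and SM + MSTF replicate 3 lay among the SM livers while replicate 2 lay within and replicate 1 above the control range. The fitted log2 change was -0.34 in SM versus control (SE 0.12, adjusted p = 0.178), a level 1.27-fold lower and so below the fold minimum as well, -0.07 in SM + MSTF versus control (SE 0.13, adjusted p = 0.889) and 0.28 between SM + MSTF and SM (SE 0.12, adjusted p = 0.295). The second Cxcl12 probe, matched to another transcript record, had fitted log2 changes of -0.51 (SE 0.18, adjusted p = 0.201), -0.45 (SE 0.20, adjusted p = 0.513) and 0.06 (SE 0.18, adjusted p = 0.893) in the same order of comparisons. Its SM arrays also lay below all controls, but its SM + MSTF mean of 12.85 was close to the SM mean of 12.79 and not to the control mean of 13.30.

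Cx3cl1 (fractalkine), the ligand of Cx3cr1, which holds monocytes and natural killer cells at the endothelium, read 8.31, 8.42 and 8.20 in control, 7.99, 8.47, 8.38 and 8.22 in SM and 8.21, 9.28 and 7.88 in SM + MSTF, in log2 units. The range of the SM livers enclosed that of the controls, and SM + MSTF replicate 2 stood above all other arrays. The fitted log2 change was -0.04 in SM versus control (SE 0.28, adjusted p = 0.961), 0.15 in SM + MSTF versus control (SE 0.30, adjusted p = 0.899) and 0.19 between SM + MSTF and SM (SE 0.28, adjusted p = 0.761). The dimmer probe of Cx3cl1 gave fitted changes of the opposite sign, but it was well above background on all arrays of SM alone and passed the filter through that group, so that its signs are partly set by that selection.

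**Figure D3:**
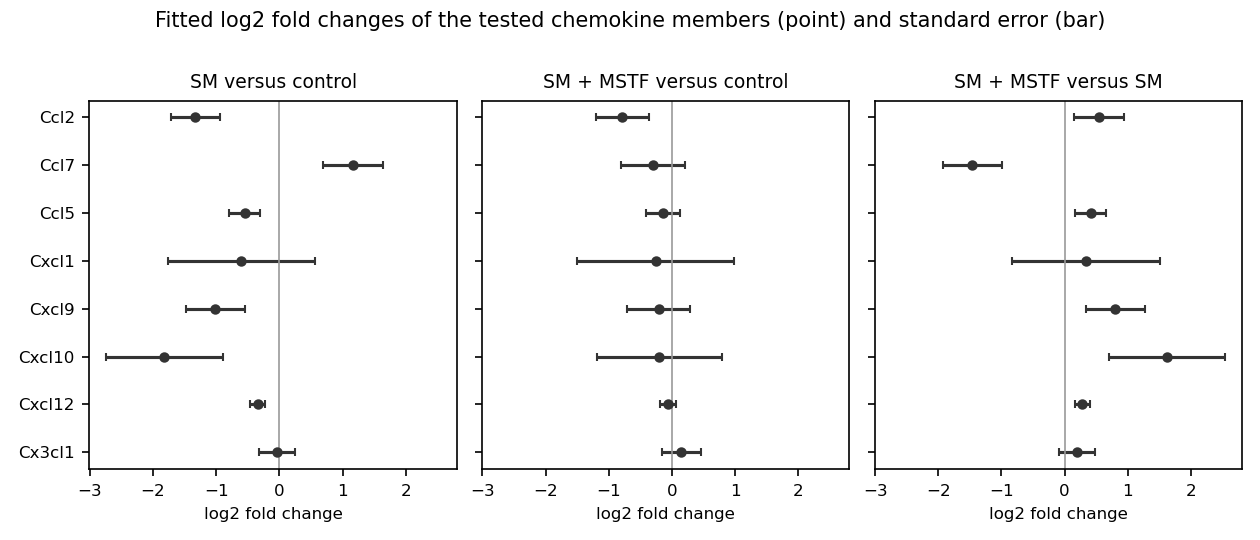
Fitted log2 change of each tested chemokine in the 3 comparisons, with points for the estimate and bars for its standard error. For Ccl7 the points give no sizes, since its probe was well above background on the SM arrays alone. Cxcl10 and Cxcl1 had the widest bars (SE 0.92 and 1.17 in SM versus control) and Cxcl12 the narrowest (SE 0.12).

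The SM livers differed among themselves in an order that some chemokines shared and others did not. SM replicate 2 was the lowest of the 4 SM arrays for 5 of the 8 tested members, Ccl2, Ccl5, Cxcl9, Cxcl10 and Cxcl12, against 25.4% of all probes tested. It was the highest of the 4 for the other 3, Ccl7, Cxcl1 and Cx3cl1, against 27.4% of all probes. SM replicate 4 was the highest of the 4 for 4 members, Ccl2, Ccl5, Cxcl9 and Cxcl10, against 24.1% of all probes. In a list of genes of the interferon response, SM replicate 2 was the lowest of the SM arrays for 14 of 16 tested genes and SM replicate 4 the highest for 14. The mean log2 signal of these 16 genes was 10.41, 10.99 and 10.93 in control, 9.70, 8.95, 10.51 and 11.21 in SM and 10.13, 10.69 and 11.77 in SM + MSTF. SM replicate 2 was thus lowest and SM + MSTF replicate 3 highest of the 10 arrays, as they were for Cxcl10. SM + MSTF replicate 3 was the highest of all arrays for 14 of the 16 interferon response genes and for 3 of the 8 chemokines, against 13.7% of all probes. It was also the lowest of all arrays for 2 chemokines, against 18.5% of all probes.

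**Figure D4:**
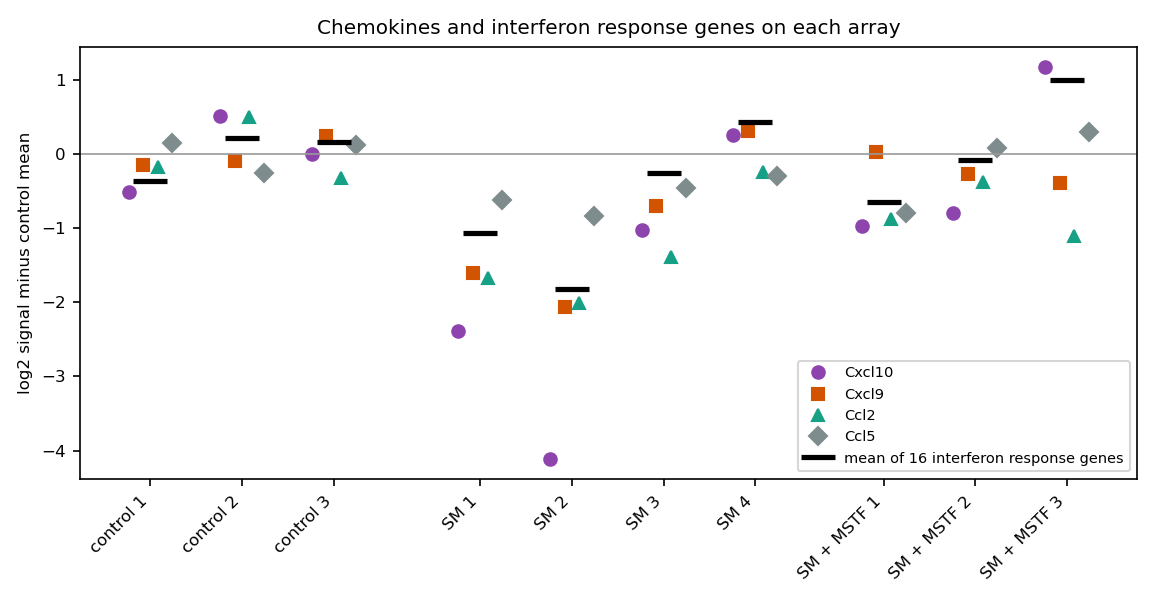
Log2 signal minus the control mean of Cxcl10, Cxcl9, Ccl2 and Ccl5 and of the mean of 16 interferon response genes, for each array. In SM replicate 2 all of them lay below 0, and SM + MSTF replicate 3 had the highest interferon response mean (11.77) and the highest Cxcl10 signal (12.12) but not the highest Cxcl9 or Ccl2 signal.

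Of the interferon response list, all 18 genes had a probe, 16 were tested and none was called by limma in any comparison. At an unadjusted p under 0.05, 2 were lower in SM versus control (16.4% of all probes passed in either direction), 1 was higher in SM + MSTF versus control (9.54%) and 1 was higher in SM + MSTF versus SM (15.9%), each a smaller share of the 16 than of all probes. The median fitted log2 change of the 16 genes was -0.60 for SM against control, 0.061 for SM + MSTF against control and 0.69 for SM + MSTF against SM. Irf1, a transcription factor induced by interferon, had a fitted log2 change of -0.36 in SM versus control (SE 0.15, adjusted p = 0.262), with all SM arrays below all controls. Psmb8, a subunit of the immunoproteasome, had one of 1.02 in SM + MSTF versus SM (SE 0.27, adjusted p = 0.123), with all SM + MSTF arrays above all others. Ifngr1, a chain of the interferon gamma receptor, had the smallest p of the genes fitted higher in SM versus control, at 0.11 (SE 0.090, adjusted p = 0.594). Interferon gamma itself, Ifng, was well above background on no array.

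Among inducers of chemokines and the feedback genes of NF-kB, 15 of 19 genes had a probe, 11 were tested and none was called in any comparison. The median fitted log2 change was -0.18 for SM against control, 0.12 for SM + MSTF against control and 0.22 for SM + MSTF against SM. Il1b, the interleukin that induces many chemokines, had the smallest p upwards in SM + MSTF versus SM, at a fitted log2 change of 0.63 (SE 0.27, adjusted p = 0.303). Nfkbia, the inhibitor that NF-kB itself induces, had a fitted log2 change of 0.049 in SM versus control (SE 0.25, adjusted p = 0.947). Tnip1, a brake on NF-kB signalling, had one of -0.18 (SE 0.11, adjusted p = 0.440). The inducers Tnf and Il6 were well above background on no array.

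Of the 26 other chemokine ligands, 23 had a probe and 15 were tested, and 1 of these, Ccl24, was called in 1 comparison. Ccl24, an eosinophil chemoattractant also called eotaxin-2, read 5.71, 5.80 and 5.81 in control, 5.08, 5.39, 5.49 and 5.35 in SM and 5.84, 6.32 and 6.03 in SM + MSTF, in log2 units. The 3 groups did not overlap, with SM lowest and SM + MSTF highest. Ccl24 was higher in SM + MSTF than in SM by 0.74 on the log2 scale (SE 0.13, adjusted p = 0.0331), and its fitted log2 change was -0.45 in SM versus control (SE 0.13, adjusted p = 0.128) and 0.29 in SM + MSTF versus control (SE 0.14, adjusted p = 0.555). The size ranged from 0.37, with normexp correction and under the fold minimum, to 0.85. The call held in 3 of 17 alternatives, with adjusted p between 0.0319 and 0.222, and was lost with a random slide term (adjusted p = 0.0851). Outside the 17, Ccl24 was also called with the stricter filter, with no fold minimum and by the unadjusted t-test, but not without a filter. Without any 1 of SM + MSTF replicate 2 or 3, any control or any SM array, it was lost as well.

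Cxcl13, which guides B cells into follicles, had the smallest p downwards among the other ligands. Its log2 signal was 8.09, 8.65 and 8.39 in control, 7.37, 6.63, 7.38 and 7.81 in SM and 7.50, 7.29 and 7.79 in SM + MSTF, so that both treated groups lay below all controls. The fitted log2 change was -1.08 in SM versus control (SE 0.26, adjusted p = 0.0615) and -0.85 in SM + MSTF versus control (SE 0.28, adjusted p = 0.424). Pf4, platelet factor 4, lay higher in both treated groups than in all controls, with a fitted log2 change of 1.02 in SM versus control (SE 0.26, adjusted p = 0.0733) and 0.94 in SM + MSTF versus control (SE 0.27, adjusted p = 0.423). Cxcl17, a mucosal chemokine, had the smallest p downwards in SM + MSTF versus SM, at -0.14 (SE 0.20, adjusted p = 0.760). The median fitted log2 change of the 15 genes was -0.23 for SM against control, -0.013 for SM + MSTF against control and 0.23 for SM + MSTF against SM.

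Most receptors were too dim for a comparison. Of 23 chemokine receptors on the list, 20 had a probe and 5 were tested, and none was called. Ccr1, Ccr3, Cxcr6, Cx3cr1 and Ackr2 were not well above background on any array, and Ccr2 and Cxcr2 were so on 1 array each. Ackr1 had no probe. Cxcr3, the receptor of Cxcl9 and Cxcl10, was well above background on 2 arrays of each group and was not tested. Ackr3, the scavenger receptor for Cxcl12, read 6.48, 6.76 and 6.47 in control, 5.59, 6.02, 5.70 and 5.68 in SM and 5.45, 7.60 and 6.24 in SM + MSTF. All its SM arrays lay below all controls, with a fitted log2 change of -0.82 (SE 0.40, adjusted p = 0.350). Cxcr4, the signalling receptor for Cxcl12, had one of -0.071 (SE 0.21, adjusted p = 0.906).

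Enzymes that cut or shed chemokines were represented by 8 genes, of which 7 had a probe and 5 were tested, with none called. Mmp12, the macrophage elastase, which cleaves several chemokines, was well above background on all control and all SM + MSTF arrays and on no SM array. It was at least 2.35-fold higher in control than in SM (adjusted p = 0.0535) and at least 2.16-fold higher in SM + MSTF than in SM (adjusted p = 0.0988) by the same rule, and the SM arrays lay below all others. Mmp12 passed the filter only through the groups where it was bright, so that its p and its separation are partly set by that selection. It was not called in the fit, but was in SM + MSTF versus SM when only those arrays were fitted or control replicate 2 was left out. Dpp4, which trims the ends of Cxcl10 and Cxcl12, had a fitted log2 change of 0.16 in SM versus control (SE 0.14, adjusted p = 0.638). Adam17, a sheddase of Cx3cl1, had one of 0.13 in SM + MSTF versus control (SE 0.16, adjusted p = 0.826), and Mmp2, a gelatinase that cleaves Cxcl12, one of -0.32 (SE 0.21, adjusted p = 0.654).

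Markers of the cells that a liver sample holds were read beside the chemokines, as the summed linear signal of each list. The brightest probe weighs most in a sum, and brightness does not rank genes by their RNA. All 6 hepatocyte markers were well above background on all arrays, with transferrin (Tf) the brightest probe, and their SM sum was 0.944 of the control sum. Tf lies at the top of the scale, where quantile normalization sets the values, so that this ratio says little about hepatocytes. For Kupffer cells and macrophages, all 8 markers with a probe, of 9 listed, were well above background on all arrays, and the Clec4f probe was the brightest. Their sum was 62049, 56428 and 81457 in control, 48129, 41187, 68191 and 68113 in SM and 59562, 74452 and 80576 in SM + MSTF. The Clec4f probe makes up most of this sum, and the other markers did not all share its order of SM arrays. In SM + MSTF versus SM all 8 markers were fitted higher, with a median fitted log2 change of 0.41, and 4 had an unadjusted p under 0.05, against 15.9% of all probes. Against control all 8 were fitted higher in SM + MSTF as well (median 0.34), and 7 of the 8 were fitted lower in SM (median -0.12). The part of macrophage number in the chemokine values was not tested.

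Of 6 natural killer cell markers, 4 were well above background on all arrays, Ncr1 on none, and the Gzma probe was the brightest. SM replicate 2 was the lowest and SM + MSTF replicate 3 the highest of the 10 arrays for all 5 markers tested, and SM replicate 4 was the highest SM array for all 5. The summed signal was 1676, 1837 and 1862 in control, 1174, 958, 1619 and 2785 in SM and 1375, 1854 and 3332 in SM + MSTF. Klrd1, a chain of the inhibitory and activating receptors of natural killer cells, was called lower in SM than in control (adjusted p = 0.0277) and higher in SM + MSTF than in SM (adjusted p = 0.0455). It read 5.35, 5.54 and 5.46 in control, 4.46, 3.64, 4.30 and 4.53 in SM and 5.09, 5.27 and 5.78 in SM + MSTF, and SM replicates 2 and 3 were not well above background. No size is therefore given, and with normexp correction neither was called. Klrd1 passed the filter through control and SM + MSTF, where it was bright, so that the calls are partly set by that selection. The first call held in 8 of 17 alternatives (adjusted p between 0.0130 and 0.110) and the second in 2 of 17 (between 0.0408 and 0.269), and a random slide term gave an adjusted p of 0.0912 and 0.102. The part of natural killer cells in the levels of Ccl5, Cxcl9 and Cxcl10 was not tested.

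Neutrophils were barely detected. Of 8 markers 7 had a probe, 2 were well above background on all arrays and 4 (Elane, Csf3r, Camp and Mmp8) on none, and the S100a9 probe was the brightest. The sum was 288, 547 and 436 in control, 1590, 329, 331 and 933 in SM and 890, 355 and 728 in SM + MSTF. It was highest in SM replicate 1, whereas Cxcl1 was highest in SM + MSTF replicate 3. For T cells, 3 of 7 markers were well above background on all arrays and Cd5 on none. The Cd3d probe was the brightest, and the sum was 747 on average in control, 715 in SM and 737 in SM + MSTF. For B cells, 2 of 5 markers had a probe. The brighter, Cd79b, read 6.42, 6.65 and 6.02 in control against 3.57, 4.28, 5.04 and 3.84 in SM, where replicates 1 and 4 were not well above background, so that no size is given (adjusted p = 0.125). The B cell sum in SM was 0.274 of the control sum, beside the lower fitted Cxcl13.

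For the other liver cells, the SM sum was 0.999 of the control sum for endothelial cells (4 of 7 markers with a probe, Kdr the brightest), 0.842 for stellate cells (7 of 7, Lrat, with 4 of the 7 fitted higher in SM and a median fitted log2 change of 0.092), 1.15 for bile duct cells (3 of 5, Epcam) and 1.499 for platelets (2 of 3, Gp1bb). Every marker with a probe in these 4 lists was well above background on at least 1 array. Apart from Klrd1, no marker of any list was called in any comparison. The control genes Actb and Gapdh had fitted log2 changes of 0.039 (SE 0.19) and 0.17 (SE 0.13) in SM versus control and were not called.

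**Figure D5:**
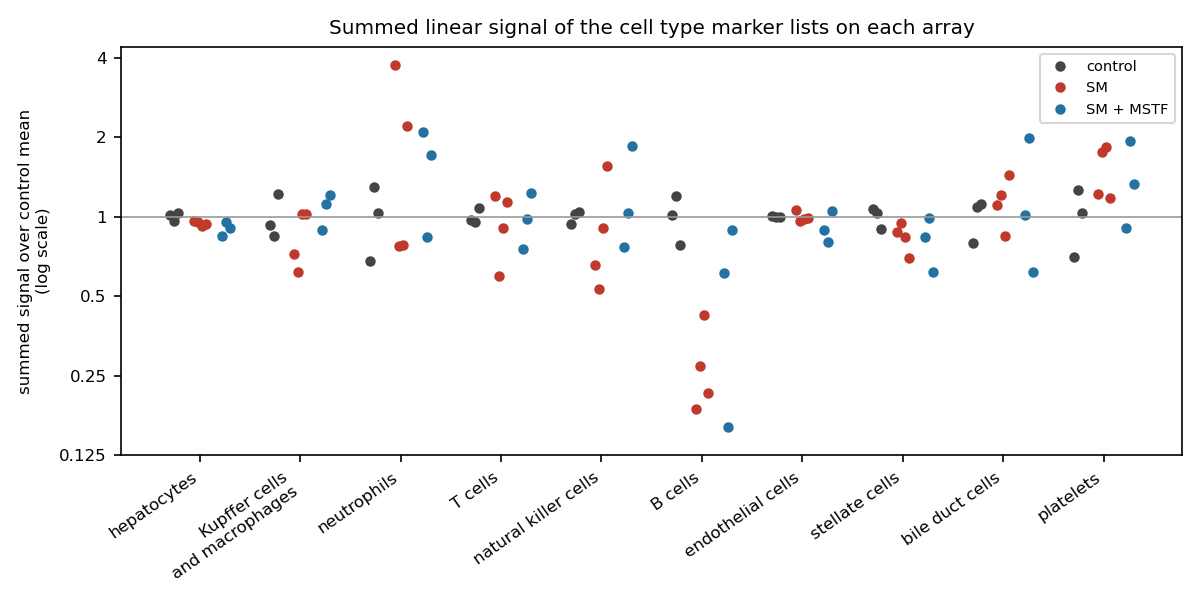
Summed linear signal of each cell type marker list on each array, divided by the mean of the controls, on a log scale, with 1 point per array coloured by group. Natural killer cell sums ran from 958 to 2785 among the SM arrays alone, and all 4 SM arrays lay below all controls for the B cell list.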

How the data were processed

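The authors read the scanned arrays with Feature Extraction 10.7. The deposited scanner files give each spot a background-subtracted intensity and mark spots well above background or not uniform. The authors' deposited log2 values, quantile normalized in GeneSpring, had a median of 5.176 in all 10 columns and served as an alternative.

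Here the control spots, and the 0 to 4 non-uniform spots of an array, were removed first. Intensities were then quantile normalized, as in the study's methods, and log2 transformed, and the spots of each probe were averaged (R 4.3.3, limma 3.58.1). The filter kept a probe that was well above background throughout 1 group or more and had 2 values in each. RefSeq accessions (GRCr8 table) named 17503 probes and left 23509 unnamed. The comparisons came from 1 limma fit (lmFit and eBayes) of all 10 arrays, with Benjamini-Hochberg adjustment over the 22991 probes. The steps were tested on simulated data.

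A gene stands for its probe of highest mean log2 signal. Named are the members and their receptors, from each other list the genes called and those of smallest p upwards and downwards in each comparison, from each marker list the gene of brightest probe and the genes called, and Actb and Gapdh. Some genes that meet this rule are not detailed here. Ifng, Tnf and Il6 were named outside this rule, after it was seen that no array detected them, and the Ccl2, Cxcl1, Ccl7, Cxcl9, Cxcl10, Ccl24, Mmp12 and Klrd1 alternatives shown were picked with their values known. The members and lists were chosen with earlier results of these data known. Alternatives covered scaling, background correction (normexp, offset 50), the deposited values, the filter, the samples fitted, the test, the fold minimum, the slide and replicate number as blocks, other probes and each array left out.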

Additional observations from a re-analysis of the deposited data

Results flagged for a closer look

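In the SM group of 4 arrays, a value was set apart where its gap to the nearest other array, as a share of the group's range, passed the 5% limit of Dixon's test. Of the 41 named and tested values, 2 passed, and chance alone passes about 1 in 20. The log2 signal of Ccl7 in SM replicate 2 was 6.293, above 5.18 in the next SM array. That of the control gene Gapdh in SM replicate 4 was 15.95, above 15.62 in the next. Among the 10 tested probes of the members this was the only one. Groups of 3 arrays were not tested in this way.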

How the results depend on the processing

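Calls depended on the fit. SM versus control gave 553 probes, 226 with normexp, 342 unfiltered, 336 with a stricter filter, 1131 by unadjusted t-test, 320 by adjusted t-test, 85 with slide as a random block, 53 with replicate number as a block, and 65 to 717 with 1 array left out. The share called higher was 40.5%, and 17.7% with normexp. SM + MSTF versus control gave 0 probes, 285 by unadjusted t-test, 183 with slide as a fixed block and 0 to 247 with 1 array left out. SM + MSTF versus SM gave 290 probes, 60 with normexp, 140 with a stricter filter, 155 from the compared arrays alone, 863 by unadjusted and 13 by adjusted t-test, 102 with slide as a random block, 64 with replicate number as a block, and 98 to 301 with 1 array left out. The share called higher was 25.5%, and 15.3% with 75th percentile scaling. Replicate numbers tie arrays by number only: 3 of 9 same-number pairs correlated above 0.1.

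Members called stayed at 0, except 1 by unadjusted t-test in SM versus control (Ccl2) and in SM + MSTF versus SM (Ccl7), and 0 to 1 in SM versus control with 1 array left out (Ccl2, without SM replicate 4). With replicate number as a block 0 were called. Other pathway genes called in SM versus control were 0, 1 from the compared arrays alone (Ackr3) and 4 by unadjusted t-test, and in SM + MSTF versus control 0, and 2 by unadjusted t-test. In SM + MSTF versus SM they were 1, 3 by unadjusted t-test, 0 with normexp, unfiltered, by adjusted t-test, with slide as a random block or replicate number as a block, and 0 to 1 with 1 array left out. The 1 gene was Ccl24, but Mmp12 from the compared arrays alone or without control replicate 2, and Psmb8 without SM replicate 4.

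Of 447 refitted values of the 24 member changes, 417 kept their reading, 27 turned sign and 3 passed the threshold, and 12 changes never turned. Those that turned, and that of the marker Klrd1, follow in log2, with the range over arrays left out. Those of Ccl7 and of the other probe of Cx3cl1 include arrays not well above background, so that they give signs and no sizes. For Ccl7 in SM + MSTF versus control no array was well above background. In SM versus control: Ccl7 1.16, other probe -0.87; Cxcl1 -0.60, -1.13 to 0.02; Cx3cl1 -0.04, other probe 0.10, -0.11 to 0.05. In SM + MSTF versus control, where the fixed block rests on SM + MSTF replicate 3 alone: Ccl7 -0.30, -0.58 to 0.19; Ccl5 -0.14, fixed slide block 0.29, -0.36 to 0.19; Cxcl1 -0.26, random 0.15, fixed 2.71, -1.75 to 0.83; Cxcl10 -0.20, fixed 1.18, -0.89 to 0.19; Cxcl12 -0.07, -0.15 to 0.06; Cx3cl1 0.15, fixed -0.43, other probe -0.30, -0.26 to 0.44; Klrd1 -0.07, fixed 0.33, -0.27 to 0.08. In SM + MSTF versus SM: Ccl7 -1.46, other probe 0.68; Cxcl1 0.34, -1.15 to 1.43; Cx3cl1 0.19, other probe -0.40, -0.22 to 0.48.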
